A study of Saccharomyces cerevisiae with 7 samples.

Results

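Nitrogen catabolism in yeast was followed through 34 listed genes that take up ammonium, break down allantoin, urea, arginine, proline, GABA and peptides, make glutamate and glutamine, or control these steps. The members are given by gene symbol, in a list drawn up with earlier results of these data known. A probe set listed for that gene alone was found for 33 of the 34, out of 5656 genes with such a probe set in the whole series. DUR1,2, which encodes urea amidolyase, was not analysed here. For the 3 members with several probe sets, the one with the highest mean log2 intensity over the 7 arrays was used.

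The arrays were 7 one-colour Affymetrix arrays of CEN.PK113-7D, a prototrophic haploid laboratory strain of Saccharomyces cerevisiae with no further allele named in the labels. Galacturonic acid, the sugar acid of pectin, was added at 10 g/l for 2 arrays and galactose at 0.23 g/l for 2 others, and the 3 control arrays had neither. All cultures were aerobic chemostats limited by glucose (7.5 g/l) in a synthetic medium whose nitrogen source is ammonium, held at pH 3.5 and 30 °C and diluted at 0.1 per h. For the galactose arrays the source name gives galacturonic acid at that dose, whereas the title, the description and the treatment give galactose, which was followed. The labels name separate culture codes but no shared inoculum or day, so the p-values cover no more than the variation among these arrays, which may be technical. Levels are relative to the RNA of each whole culture, so fewer expressing cells and less RNA per cell cannot be told apart.

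Yeast ranks its nitrogen sources. With a rich source, Ure2 holds the GATA-type activators Gln3 and Gat1 in the cytoplasm, and genes for the use of poorer sources stay low, a state called nitrogen catabolite repression. Dal80 and Gzf3 are GATA-type repressors that bind the same promoter sites, and pathway activators such as Dal82, Put3 and Uga3 add control by the substrate itself. Ammonium enters the cell through Mep permeases, becomes glutamate through Gdh1 and Gdh3 and glutamine through Gln1, while Gdh2 releases ammonium from glutamate.

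Of the 33 members, 26 read above an intensity of 12 on all 7 arrays. This level was used as a floor because low values have no reliable order. PTR2 and DAL4 were above it on 6 arrays, DAL1 on 5, and DAL7 and UGA4 on 3. DAL80 was above it on 1 array only (15.1 on galactose array 2) and OPT2, a peptide transporter gene, on none, with values from 0.1 to 2.3. These 2 genes were not tested, which left 31 tested members among 5220 tested genes.

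The galactose arrays stood apart in the ACT1 measure of RNA quality, and array 2 also in that of SPT15. The 3'/5' intensity ratio of the ACT1 control probe sets was 1.34 and 1.33 on the galacturonic acid arrays, 19.76 and 306.48 on galactose arrays 1 and 2, and 1.07 to 1.23 on the control arrays. The 5' value behind 306.48 was 10.5, below the floor, so the size of that ratio is uncertain. The SPT15 ratio was 2.04 and 2.28 with galacturonic acid, 2.76 and 124.41 on galactose arrays 1 and 2, and 1.66 to 2.75 in control, so galactose array 1 was close to control array 1 by this measure. Over the 31 tested members, the median SD between arrays was 0.15 log2 units for galacturonic acid, 0.31 for galactose and 0.35 for control. Over all 5220 tested genes it was 0.17, 0.52 and 0.30 for the same groups, and Pearson's r across these genes was 0.976 between the galacturonic acid arrays, 0.818 between the galactose arrays and 0.951 to 0.973 between control arrays. The part of RNA quality in each galactose result was not tested. Median log2 differences over all tested genes were -0.01 for galacturonic acid minus control and 0.22 for galactose minus control, and the second became 0.04 when arrays were scaled to a common 75th percentile. The 3 control arrays serve both comparisons with control, so these comparisons are not independent. The fit over all arrays gives each gene the same spread in every group. Arrays outside a comparison thus bear on its p-value but not on its difference.

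The first comparison, galacturonic acid against control, addresses the aim of the series, which was to find how the acid affects yeast. In the fit over all arrays PUT1 was called lower, and no member was called higher. With limma, 1 of 31 tested members passed a Benjamini-Hochberg adjusted p under 0.05, or 3.23%, against 2.32% of all tested genes, so the share called was near the background. The members' median log2 difference was -0.26, against -0.01 over all tested genes. Both galacturonic acid arrays lay below all 3 control arrays for 12 members, or 38.7%, against 21.9% of all tested genes. They lay above all 3 for 3 members, or 9.68%, against 20.2%. At an unadjusted p under 0.05, 6 members (19.4%) were lower, against 6.78% of all genes, and 1 (3.23%) was higher, against 5.69%. The 6 were PUT1, CAR2, DAL3, DUR3, GDH2 and MEP1, and the 1 was PTR2. When arrays were weighted by their agreement with their group, these 6 lower genes all passed, as did 14.8% of all tested genes.

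**Figure D1:**
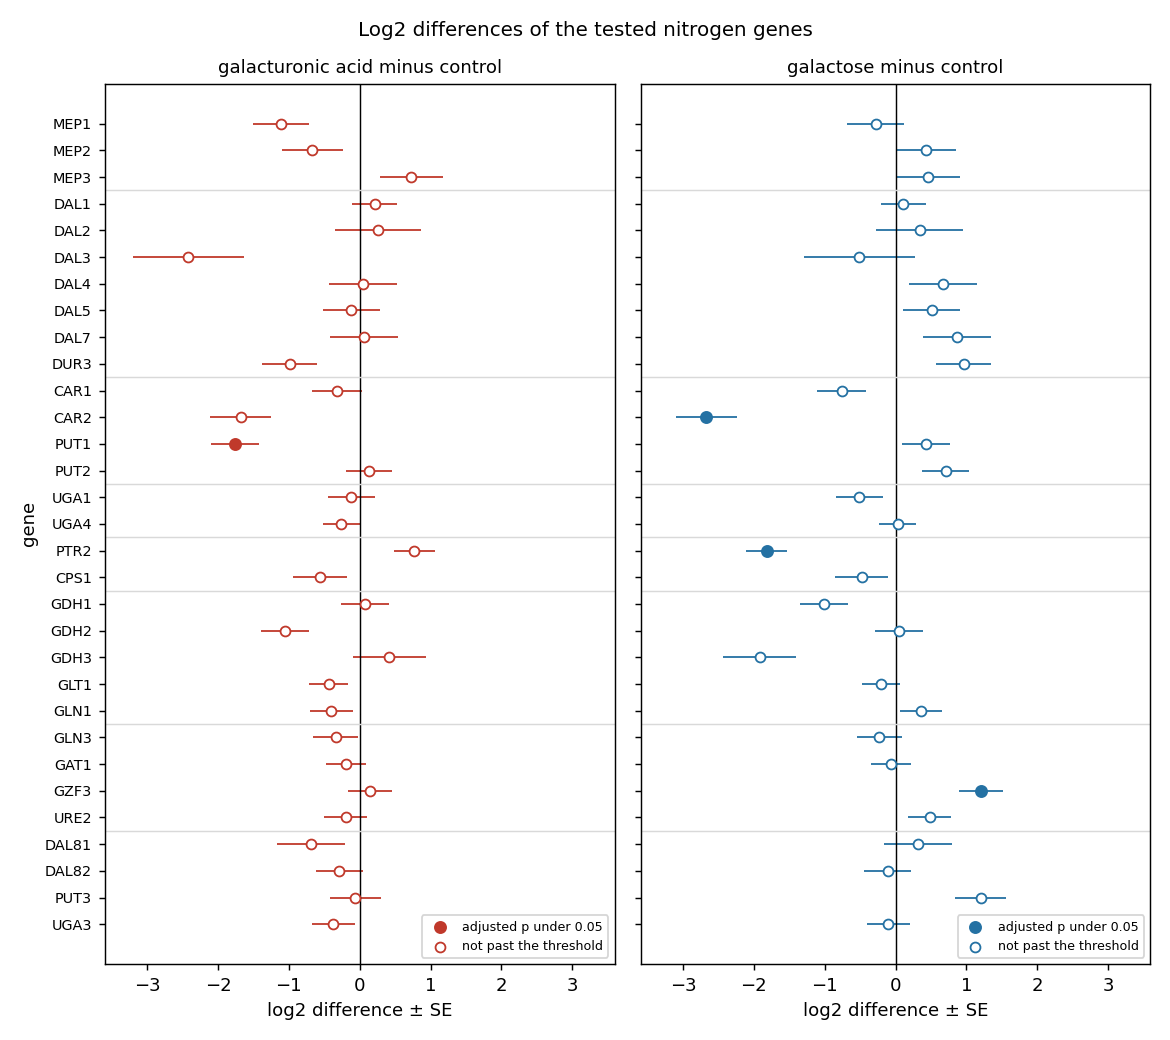
Log2 differences of the 31 tested nitrogen genes, with the standard error of the limma fit, for galacturonic acid minus control (left) and galactose minus control (right). Filled points passed an adjusted p under 0.05, and grey lines part the gene groups. PUT1 at -1.76 is the filled point on the left, and CAR2 at -2.67, PTR2 at -1.82 and GZF3 at 1.21 are those on the right.

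The 3 ammonium permease genes showed no call in the fit over all arrays. MEP2 encodes the high-affinity permease that also serves as an ammonium sensor in filamentous growth. It read 387.1 and 362.4 on the galacturonic acid arrays, 1322.1 and 485.3 on the galactose arrays, and 497.2, 594.7 and 715.9 on the control arrays. Its galacturonic acid values lay below every control value, and the galactose arrays fell on opposite sides of the control range. The log2 difference was -0.67 ± 0.43 (SE, adjusted p = 0.592) for galacturonic acid minus control. MEP1, a second high-affinity permease gene, read 210.1 and 120.9 with galacturonic acid against 284.6, 347.1 and 412.6 in control, again with no overlap, and its difference was -1.11 ± 0.40 (SE, adjusted p = 0.289). MEP3, the low-affinity paralog, lay the other way, at 106.0 and 72.5 with galacturonic acid against 39.5, 56.4 and 66.9 in control, with a difference of 0.73 ± 0.45 (SE, adjusted p = 0.575). Whether probes of MEP1 and its paralog MEP3 read each other's transcript was not tested.

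In allantoin and urea use, galacturonic acid gave no call among 7 tested genes in the fit over all arrays, and DAL3 had the most negative log2 difference of the 7. DAL3 encodes ureidoglycolate lyase, the enzyme that splits ureidoglycolate to glyoxylate and urea. It read 70.1 and 47.3 on the galacturonic acid arrays, 583.9 and 80.3 on the galactose arrays, and 171.4, 445.6 and 383.9 on the control arrays. The galacturonic acid arrays lay below all control arrays, while the galactose arrays lay far apart. The difference from control with galacturonic acid was -2.42 ± 0.78 (SE, adjusted p = 0.215), a 5.36-fold lower mean on the log2 scale. Without galactose array 1 or without array 2 the same difference passed, with adjusted p of 0.0436 and 0.0407 (5.5% and 5.06% of all genes called), and it passed at 0.0433 in a fit of the galacturonic acid and control arrays alone. In that fit DAL3 and PUT1 were the members called, 2 of 31, where 4.9% of all genes were called.

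DAL1, DAL4, DAL2, DAL7 and DAL3 lie next to each other in the genome, with DCG1 between DAL2 and DAL7, in the gene order of RefSeq assembly R64. With galacturonic acid the other genes of this cluster overlapped with control. DAL2 (allantoicase) read 97.2 and 60.6 with galacturonic acid against 35.1, 97.6 and 76.4 in control, a difference of 0.26 ± 0.61 (SE). DAL4 (allantoin permease) read 29.2 and 19.5 against 9.5, 30.9 and 33.9, a difference of 0.04 ± 0.48 (SE). Both pairs of values lay inside the control range. DAL1 (allantoinase) and DAL7 (a malate synthase) lay near the floor, with differences of 0.21 ± 0.32 and 0.06 ± 0.48 (SE), and DCG1, which is no member, was at 0.04 ± 0.45 (SE). The difference between DAL3 and its neighbours was not tested.

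Elsewhere in this group, DAL5, an allantoate and ureidosuccinate permease gene, read 58.7 and 77.5 with galacturonic acid, 135.1 and 81.0 with galactose, and 57.7, 105.6 and 65.2 in control. Its groups overlapped with control. DUR3, the urea and polyamine transporter gene, separated the 3 groups without overlap. It read 70.1 and 47.9 with galacturonic acid, 246.7 and 203.0 with galactose, and 90.2, 98.8 and 171.9 in control. Its difference from control was -0.99 ± 0.39 (SE, adjusted p = 0.337) with galacturonic acid and 0.96 ± 0.39 (SE, adjusted p = 0.126) with galactose, and neither passed. Set against each other, galacturonic acid was lower than galactose by a log2 difference of -1.95 ± 0.43 (SE, adjusted p = 0.0287), or 3.86-fold.

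The arginine and proline genes held the strongest change with galacturonic acid among the members by adjusted p. PUT1 encodes proline oxidase, the first enzyme of proline breakdown in mitochondria. It read 33.2 and 38.3 on the galacturonic acid arrays, 171.4 and 155.6 on the galactose arrays, and 95.0, 155.8 and 119.9 on the control arrays. Every galacturonic acid value was below every value of the other groups, and the galactose values overlapped with control. PUT1 was 3.40-fold lower with galacturonic acid than in control (log2 difference -1.76 ± 0.34 SE, adjusted p = 0.0387). Against galactose it was 4.58-fold lower (-2.20 ± 0.37 SE, adjusted p = 0.0151).

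The call of PUT1 against control was lost without any one of the 5 arrays of its groups. Without control array 1, 2 or 3 the adjusted p was 0.0956, 0.184 and 0.161, and without galacturonic acid array 1 or 2 it was 0.462 and 0.291. The difference stayed between -1.94 and -1.58 in these fits. With every array of the 2 groups but no galactose array, it passed at an adjusted p of 0.0295. It was also lost with a floor of 50 (-1.28, adjusted p = 0.132) and without the filter on low genes (adjusted p = 0.0636). Against galactose the call was lost without galacturonic acid array 1 or 2 (adjusted p = 0.186 and 0.11).

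PUT2 encodes the next enzyme of the proline path and was not called. It read 303.6 and 249.0 with galacturonic acid, 376.0 and 448.5 with galactose, and 344.1, 221.9 and 206.7 in control. The galacturonic acid values lay within the control range, with a difference of 0.13 ± 0.33 (SE), while both galactose values lay above all control values, with 0.71 ± 0.33 (SE, adjusted p = 0.164). PUT3, the activator of both PUT genes, is given with the regulators. The 95% interval for PUT2 with galacturonic acid ran from -0.63 to 0.89, that for PUT1 from -2.54 to -0.99, and the difference between them was not tested.

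CAR2 encodes ornithine aminotransferase, which feeds arginine-derived nitrogen into proline breakdown. It read 167.4 and 166.6 with galacturonic acid, 104.8 and 67.7 with galactose, and 824.3, 320.1 and 585.8 in control. All 4 supplemented arrays lay below all 3 control arrays. With galactose CAR2 fell 6.37-fold (log2 difference -2.67 ± 0.43 SE, adjusted p = 0.0173). With galacturonic acid the difference was -1.68 ± 0.43 (SE, adjusted p = 0.118). The galactose call was lost without control array 1 or 3 (adjusted p = 0.0711 and 0.0821), without galacturonic acid array 1 or 2 (0.0729 and 0.0708) and without galactose array 2 (0.067), with differences from -2.67 to -2.36. CAR1 (arginase), which acts one step before it, read 141.2 and 138.9 with galacturonic acid, 88.6 and 119.4 with galactose, and 239.9, 135.6 and 163.3 in control. Its differences from control were -0.32 ± 0.35 and -0.76 ± 0.35 (SE), and neither passed.

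**Figure D2:**
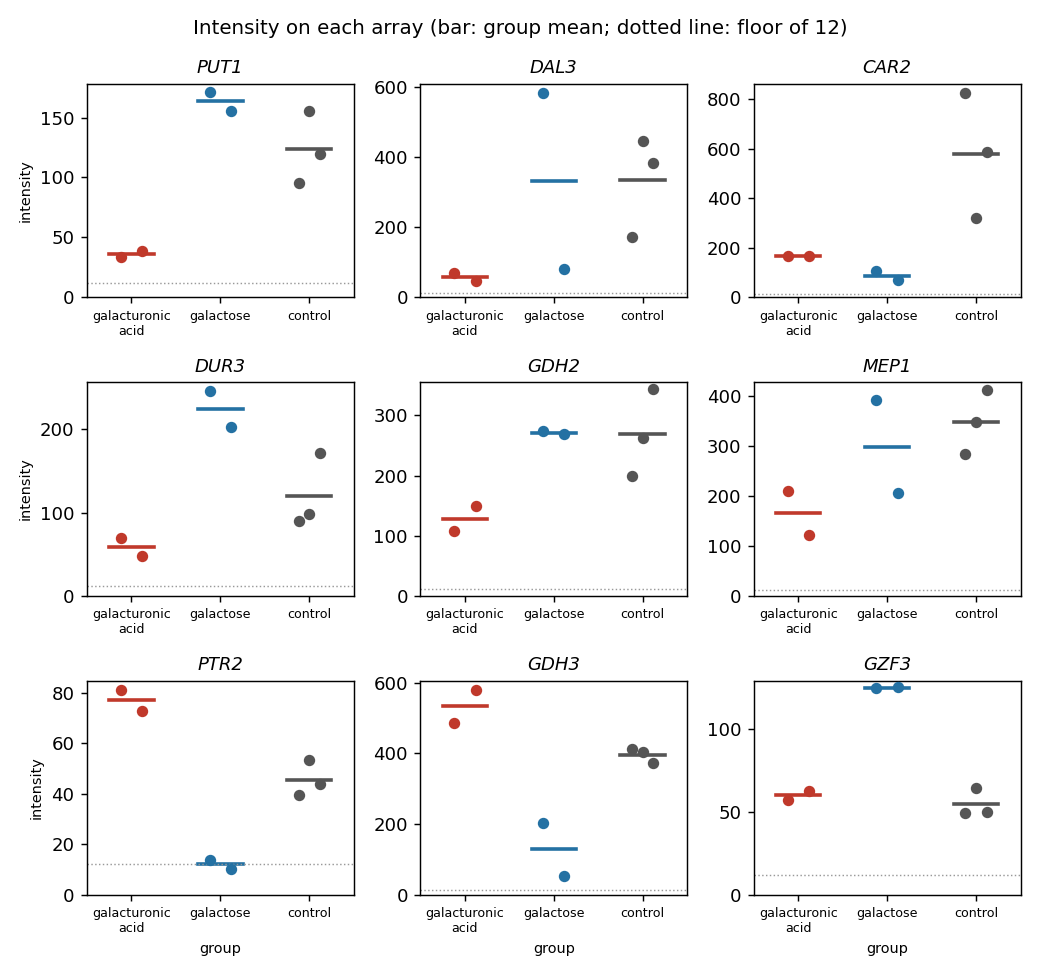
Deposited intensity (linear axis from 0) on each array for 9 nitrogen genes, with galacturonic acid, galactose and control side by side. Points are arrays and bars are group means. PUT1, DAL3, CAR2, DUR3, GDH2 and MEP1 have both galacturonic acid points below all control points, and the 2 galactose points of DAL3 lie at 583.9 and 80.3.

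Neither GABA gene was called in any comparison. UGA1 (GABA transaminase) read 127.5 and 109.5 with galacturonic acid, 104.3 and 77.9 with galactose, and 129.0, 157.8 and 104.6 in control. Its differences from control were -0.12 ± 0.33 and -0.51 ± 0.33 (SE). UGA4, the GABA permease gene, stayed between 6.9 and 18.9 on all arrays, so close to the floor that no direction can be read.

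Among the peptide genes, PTR2, the di- and tripeptide transporter gene, separated all groups. It read 81.2 and 73.0 with galacturonic acid, 13.6 and 10.3 with galactose, and 39.5, 53.4 and 43.8 in control. With galactose it fell 3.54-fold (log2 difference -1.82 ± 0.29 SE, adjusted p = 0.0156), with 1 of 2 galactose arrays at the floor. With galacturonic acid it was 0.77 ± 0.29 above control (SE, adjusted p = 0.303). Galacturonic acid was 6.03-fold above galactose (2.59 ± 0.31 SE, adjusted p = 0.00653). The galactose call against control was lost without any one of control arrays 1 to 3 (adjusted p = 0.0575, 0.0681 and 0.0821) and without galacturonic acid array 1 or 2 (0.0618 and 0.0603), and that between the supplemented groups without galacturonic acid array 1 or 2 (0.0839 and 0.0727). With a floor of 50 the galactose difference was -0.03, since PTR2 read near or below that level in both groups. Galacturonic acid minus control then passed at 0.59 (adjusted p = 0.0219), a smaller difference than 0.77. That floor raised the control values of 39.5 and 43.8 and both galactose values to 50, which narrowed the spread behind this pass.

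CUP9, which is no member, encodes the repressor of PTR2 and was at -0.71 ± 0.33 with galacturonic acid and 0.51 ± 0.33 with galactose (SE), and neither passed. CPS1, a vacuolar carboxypeptidase gene, read 74.0 and 75.1 with galacturonic acid, 90.7 and 68.9 with galactose, and 105.9, 160.5 and 78.9 in control. The galacturonic acid values lay below all control values, but the difference of -0.56 ± 0.38 (SE) did not pass.

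The genes that build glutamate and glutamine from ammonium had no call against control. GDH1, the main biosynthetic glutamate dehydrogenase gene, read 1983.0 and 1761.3 with galacturonic acid, 1219.3 and 636.3 with galactose, and 1557.1, 2048.8 and 1757.6 in control. The galacturonic acid values overlapped with control, and both galactose values lay below it. Its difference was 0.07 ± 0.34 with galacturonic acid, with a 95% interval from -0.71 to 0.86, and -1.01 ± 0.34 with galactose (SE, adjusted p = 0.088).

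GDH3, its paralog used more on nonfermentable carbon, read 487.5 and 578.6 with galacturonic acid, 203.1 and 54.0 with galactose, and 413.4, 403.9 and 372.4 in control. The groups did not overlap, and on the log2 scale galactose array 1 lay 0.96 and array 2 lay 2.88 below the control mean. Galactose minus control was -1.92 ± 0.51 (SE, adjusted p = 0.052). It was -2.88 without galactose array 1 and -0.96 without array 2, where each fit rests on 1 galactose array. It passed at -2.02 after quantile normalization (adjusted p = 0.0391) and at -2.11 after scaling to the 75th percentile (adjusted p = 0.0343). Galacturonic acid minus galactose was 2.34 ± 0.56 (SE, adjusted p = 0.0348), a 5.07-fold difference, against 3.30 or 1.39 without galactose array 1 or 2. This call was lost without control array 1, 2 or 3 (adjusted p = 0.0664, 0.0747 and 0.0752) and without galacturonic acid array 1 or 2 (0.238 and 0.182). Whether the probes of these paralogs read each other was not tested.

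GDH2, the catabolic dehydrogenase gene, read 108.0 and 148.8 with galacturonic acid, 273.6 and 268.9 with galactose, and 199.3, 263.1 and 343.2 in control. Galacturonic acid lay below all control arrays, with a difference of -1.05 ± 0.34 (SE, adjusted p = 0.216), and galactose lay inside the control range. GLT1 (glutamate synthase) read 605.8 and 604.5 with galacturonic acid, 697.1 and 738.4 with galactose, and 909.2, 713.8 and 859.3 in control, a difference of -0.44 ± 0.27 (SE) for galacturonic acid. GLN1 (glutamine synthetase) read 725.0 and 835.8 with galacturonic acid, 1282.6 and 1352.8 with galactose, and 1134.8, 779.0 and 1227.5 in control. Its difference was -0.40 ± 0.30 with galacturonic acid and 0.36 ± 0.30 with galactose (SE). Neither gene passed in a comparison with control.

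Transcripts of the GATA factors and of Ure2 showed no call with galacturonic acid. GAT1 read 351.4 and 275.7 with galacturonic acid, 356.8 and 327.2 with galactose, and 371.8, 347.5 and 348.3 in control, so all groups overlapped. Its difference with galacturonic acid was -0.19 ± 0.28, GLN3 was at -0.34 ± 0.32 and URE2 at -0.20 ± 0.30 (SE). The 95% intervals ran from -0.83 to 0.45 for GAT1, from -1.06 to 0.38 for GLN3 and from -0.88 to 0.48 for URE2. With so few arrays, the lack of a call does not show that these transcripts were unchanged.

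GZF3, the GATA repressor gene, read 57.3 and 62.5 with galacturonic acid, 124.9 and 125.1 with galactose, and 49.4, 64.3 and 49.6 in control. The galactose arrays were nearly equal and lay above all others. GZF3 rose 2.31-fold with galactose (log2 difference 1.21 ± 0.31 SE, adjusted p = 0.0479). After quantile normalization the difference was 0.99 (adjusted p = 0.0682) and after scaling to the 75th percentile 1.02 (adjusted p = 0.0643). The call was also lost without control array 1, 2 or 3 (adjusted p = 0.128, 0.112 and 0.139), without galacturonic acid array 1 or 2 (0.118 and 0.117) and without galactose array 2 (0.091). GLN3, in contrast, read 42.4 and 25.5 with galactose against 41.8, 33.5 and 40.6 in control.

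The 4 pathway activator genes had no call in the fit over all arrays. PUT3 read 84.1 and 107.1 with galacturonic acid, 167.0 and 309.0 with galactose, and 107.2, 86.7 and 105.0 in control. Both galactose values lay above all others, with a difference of 1.2 ± 0.36 from control (SE, adjusted p = 0.0704), and galacturonic acid was at -0.06 ± 0.36 (SE). Without galactose array 1 the galactose difference was 1.64, which rests on galactose array 2 alone. DAL81, a shared activator of the urea, allantoin and GABA genes, read 51.2 and 37.6 with galacturonic acid, 89.6 and 87.3 with galactose, and 42.9, 62.2 and 132.5 in control. Its control values were wide enough to hold all but 1 of the other values. DAL82 (allantoin genes) and UGA3 (GABA genes) were at -0.29 ± 0.33 and -0.37 ± 0.30 with galacturonic acid (SE).

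**Figure D3:**
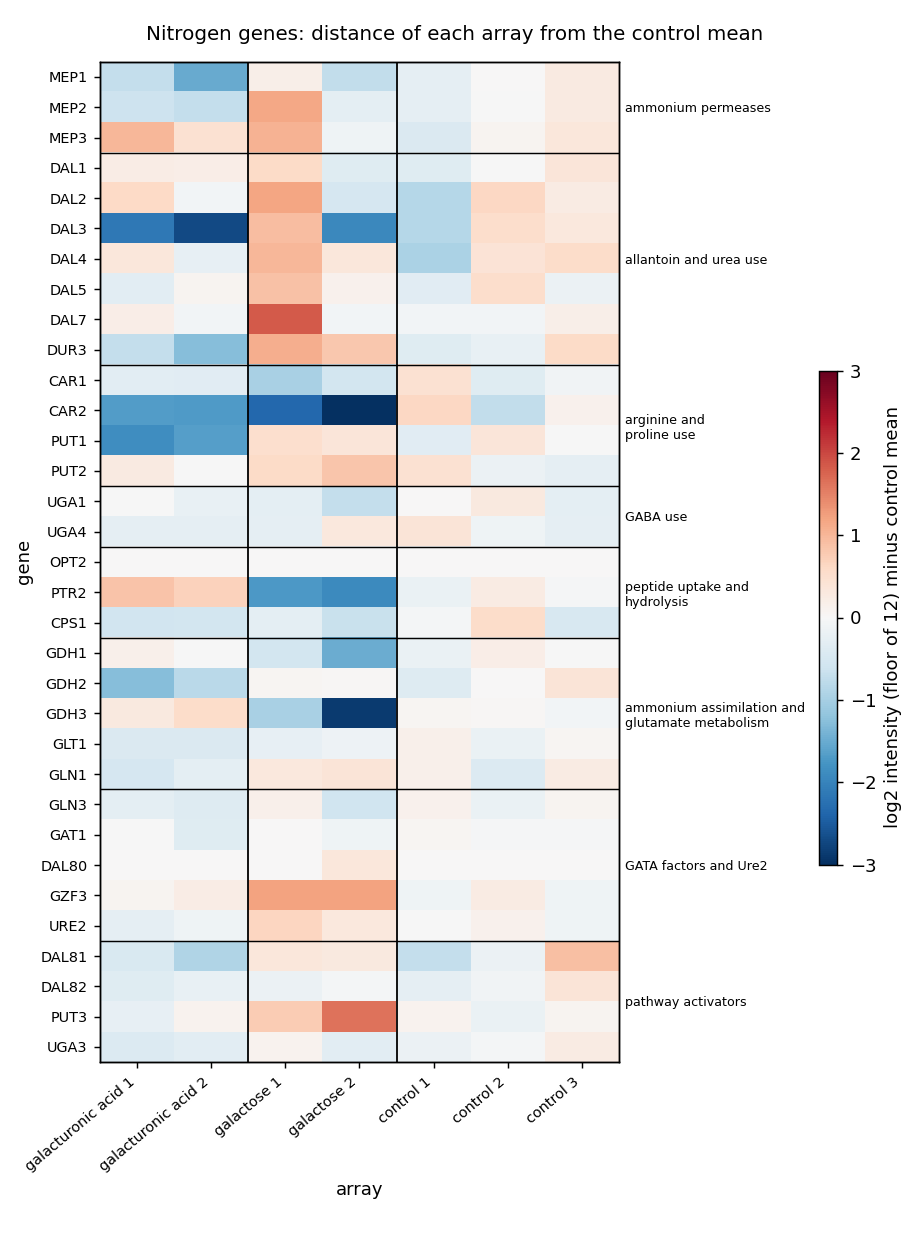
Distance of each array from the control mean in log2 intensity for the 33 measured members, grouped by role, with arrays in columns. Red is above and blue below the control mean. The galacturonic acid columns are alike, with the darkest blue at DAL3, CAR2 and PUT1. The galactose columns differ from each other, as for DAL3, DAL7 and GDH3.

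With galactose against control, 3 of 31 members (9.68%) passed, GZF3 higher and CAR2 and PTR2 lower, against 9.06% of all tested genes. The members' share was therefore near the background. Both galactose arrays lay above all control arrays for 6 members (19.4%, against 31.5% of all genes) and below them for 6 (19.4%, against 17.1%). The members' median difference was 0.05, against 0.22 over all genes. By array, 6 members lay more than 1 log2 unit above the control mean on galactose array 1 and 2 on array 2, while 2 lay more than 1 unit below it on array 1 and 5 on array 2. Of all tested genes, 15.1% lay above on array 1 and 22.6% on array 2, and 5.8% and 21.9% lay below. The arrays thus differed over all genes and not in the members alone. From array 1 to array 2 the members above became fewer, while the share of all genes above grew. In a fit of the galactose and control arrays alone, no member passed, and 0.728% of all genes did. Without galactose array 1 the difference was -1.48 for GDH1 and -1.94 for DAL3, which rest on galactose array 2 alone. Without array 2 the DAL7 difference was 1.83, resting on array 1 alone. DAL7 read 45.6 and 4.5 on arrays 1 and 2, against 10.4 to 14.5 in control.

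Galacturonic acid against galactose gave 4 calls of 31 (12.9%), against 13.1% of all tested genes. PTR2 and GDH3 were higher with galacturonic acid, and PUT1 and DUR3 were lower, as given above. Without galactose array 2 the difference was -3.34 for DAL3, -1.78 for DAL7 and -1.82 for MEP2. Without array 1 it was -1.06 for GZF3, -1.70 for PUT3 and 1.55 for GDH1. Each of these fits rests on 1 galactose array. The galacturonic acid arrays lay above both galactose arrays for 6 members (19.4%, against 23.0% of all genes) and below both for 17 (54.8%, against 41.4%). The members' median difference was -0.29, against -0.24 over all genes. The DUR3 call was lost without control array 2 or 3 (adjusted p = 0.0639 and 0.0516), without galacturonic acid array 1 or 2 (0.19 and 0.167) and without galactose array 2 (0.0666).

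Members with several probe sets show how far the galactose values depend on the probe set. The used UGA3 probe set read 190.1 and 203.0 with galacturonic acid, 275.5 and 204.1 with galactose, and 224.5, 244.4 and 300.2 in control. A second probe set of UGA3 read 63.0 and 79.7 with galacturonic acid, 7.7 and 8.0 with galactose, and 84.2, 62.7 and 55.0 in control. Galactose minus control was thus -0.10 by the first probe set and -2.46 by the second, with floored values, while galacturonic acid minus control was -0.37 and 0.10. One more UGA3 probe set gave -1.96 for galactose and passed when used (adjusted p = 0.00919). For DAL5 the used probe set gave 0.51 with galactose and another gave -0.78. The remaining 30 measured members had 1 probe set each, so this check covers no other member in a readable range.

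**Figure D4:**
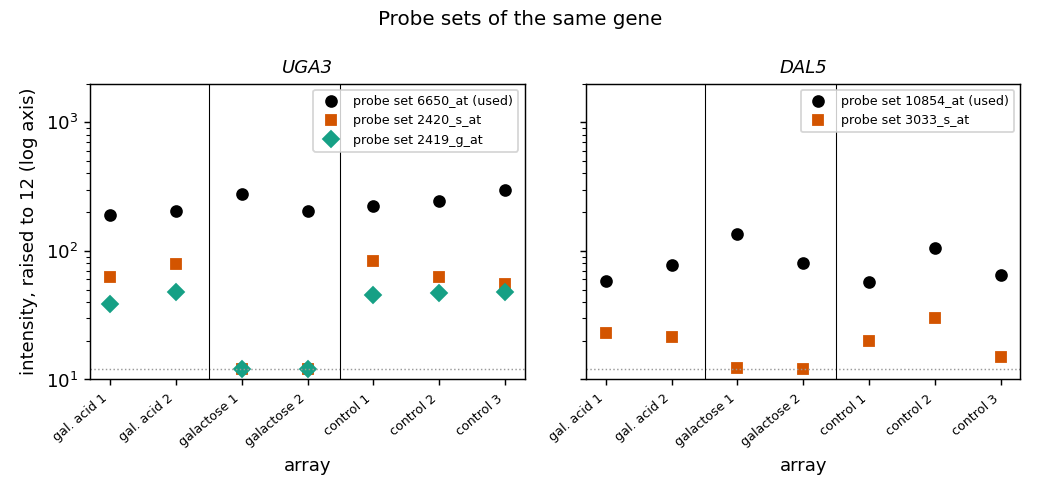
Intensity on each array, raised to the floor of 12 and on a log axis, for the probe sets of UGA3 and DAL5 that exceeded the floor on any array. On the galactose arrays the used UGA3 probe set reads 275.5 and 204.1, while the other UGA3 probe sets sit at the floor.

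Other genes under nitrogen catabolite repression and the amino acid permeases were taken from lists outside the members. Of 12 tested repressed genes, 1 fell with galacturonic acid, with a list median of -0.91 against -0.01 over all genes. This was GAP1, the general amino acid permease gene, at 72.1 and 120.9 with galacturonic acid against 448.3, 441.0 and 441.1 in control (log2 difference -2.25 ± 0.43 SE, adjusted p = 0.0385). The call was lost without any one of control arrays 1 to 3 (adjusted p = 0.148, 0.163 and 0.161) and without galacturonic acid array 1 or 2 (0.487 and 0.227). PUT4, the proline permease gene, read 195.1 and 224.9 with galacturonic acid, 185.8 and 28.3 with galactose, and 1217.1, 725.4 and 636.7 in control. PUT4 fell with galactose (-3.51 ± 0.70 SE, adjusted p = 0.0275), and its difference with galacturonic acid was -1.98 ± 0.70 (SE, adjusted p = 0.275). The galactose call was lost without any one control array (adjusted p = 0.109, 0.0833 and 0.0898) or galacturonic acid array (0.0959 and 0.0954). The galactose difference was -4.87 without galactose array 1 and -2.15 without array 2. The galacturonic acid difference passed without galactose array 1 or 2 (0.0249 and 0.0239), in fits that called 5.5% and 5.06% of all genes.

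In the list of amino acid permeases and their sensor, 14 genes were tested, and 1 rose with galacturonic acid. AGP1, a broad amino acid permease gene, read 347.8 and 205.8 with galacturonic acid against 20.5, 31.3 and 41.1 in control (3.17 ± 0.41 SE, adjusted p = 0.0101). The groups lay far apart, but the call was lost without any one control array (adjusted p = 0.0524, 0.0663 and 0.0522) or galacturonic acid array (0.209 and 0.0895). With galactose, SSY1, the sensor gene, rose to 26.8 and 28.3, against 9.2, 12.3 and 11.5 in control, which lies at the floor (1.19 ± 0.21 SE, adjusted p = 0.0206). With a floor of 1 the SSY1 difference was 1.33 and did not pass (adjusted p = 0.0977), and with a floor of 50 it was 0. BAP2, a branched-chain amino acid permease gene, fell to 224.9 and 42.8 with galactose, against 644.8, 507.5 and 502.9 in control (-2.48 ± 0.61 SE, adjusted p = 0.0447). SSY1 did not pass without any one control array (adjusted p = 0.0826, 0.0765 and 0.0821) or galacturonic acid array 1 (0.0511). BAP2 did not pass without any one control array (0.138, 0.119 and 0.128), either galacturonic acid array (0.119 each) or galactose array 2 (-1.28, adjusted p = 0.0589), and its difference was -3.68 without galactose array 1. TAT2, a tryptophan permease gene, was higher with galacturonic acid than with galactose, at 77.5 and 79.7 against 35.3 and 7.5 (1.93 ± 0.51 SE, adjusted p = 0.0438), and this call was lost without any one array other than galactose array 1 (adjusted p from 0.0714 to 0.266). Its difference was 2.71 without galactose array 1 and 1.15 without array 2. The list medians were 0.23 with galacturonic acid and -0.09 with galactose.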

How the data were processed

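The authors deposited intensity values on a linear scale for 9335 probe sets, and GCOS 1.2 was used per the submitters' processing notes. RNA from broth quenched in liquid nitrogen was labelled with biotin, per the labels' protocols. The signal algorithm is not given in the sources used here, nor is a genome build. After trimming 2% at each end, the mean was 150.1 on every array.

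Groups came from the treatment label. Probe sets were named from the platform annotation (6504 with 1 gene, all matched to RefSeq assembly R64 by gene ID). Values were raised to 12 and taken as log2. Genes above 12 on at least 2 arrays entered a single fit of the 7 arrays in limma 3.58.1 under R 4.3.3 (a mean per group, eBayes with intensity trend, 4 residual degrees of freedom), with Benjamini-Hochberg adjustment over 5220 genes at 0.05. Log2 differences carry the standard error of that fit. Folds are taken on the floored scale. The fit was tested on simulated data with a spread per gene shared by all groups and changes only in genes far above the floor. That test covers neither the unequal spreads of these groups nor genes near the floor. All members are described, and of other lists the genes past the threshold, with CUP9 and DCG1 added after their values were seen. Members and lists were chosen with earlier results of these data known. The number of arrays limits precision. Alternatives changed the scaling, floor, filter, probe set, variance model and arrays. No sequences were used.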

Additional observations from a re-analysis of the deposited data

How the results depend on the processing

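For galacturonic acid against control the count of members called was 1, which was PUT1 as lower. With a floor of 50 it was also 1, but this was PTR2 as higher, and PUT1 was not called (1.23% of all genes called). The count was 0 without a filter on low genes (1.03% of all genes). It was 6 with array weights (where 14.8% of all genes were called) and 2 in a fit of the 2 groups alone (4.9% of all genes). Without control array 1, 2 or 3 the count was 0 each time (0.46%, 0.0575% and 0.192% of all genes called). For galactose against control the count was 3. It was 1 of 31 with a floor of 50 (4.21% of all genes called) and 1 of 33 without a filter (3.15%). Above the median level, where only 20 members were tested, it was 1 (4.24%). It was 0 with array weights and 0 when only the 2 groups were fitted (0.307% and 0.728% of all genes called). Without control array 1, 2 or 3 it was 0, 1 and 0 (0.441%, 0.46% and 0.402%). For galacturonic acid against galactose it was 4. It was 2 without a filter, 2 above the median level, 2 with array weights (2.59% of all genes) and 0 when only the 2 groups were fitted (0 of 5220 genes called by limma), and ranged from 0 to 7 without single arrays, with 7 where 44.6% of all genes were called. Fits that left 1 array in a group assumed that array to vary like the others, so their counts are not given here. In limma fits with a count of 0 where every group kept more than 1 array, between 3 and 8 of the 31 tested members had an unadjusted p under 0.05. Without the filter this was of 33 members. The share of all genes at that threshold was not counted in these fits, so nothing particular to the members can be read from it. The causes of these changes were not tested.

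The control source names end in the same number, so a replicate block could be fitted only for galacturonic acid against galactose. There it called 0 of 31 members and 0.23% of all genes. Same-numbered arrays of these groups had deviations correlated at 0.166 over 5220 genes. The labels do not say that the numbers pair cultures, and the endings may be exponents of the dilution rate rather than replicate numbers. With the lowest probe set, UGA3 turned to 1.84 in that comparison, from -0.27 with the used one. With the block PUT1, PTR2, GDH3 and DUR3 did not pass in that comparison, with adjusted p from 0.0707 to 0.11. The block was fitted to the arrays of these 2 groups alone. In the limma fit of the same arrays without a block these genes did not pass either (adjusted p from 0.0869 to 0.183).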

Other observations

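Other lists near the nitrogen genes held few calls. Of 11 tested genes of other amino acid breakdown, none passed against control. The list medians were -0.42 for galacturonic acid minus control and 0.09 for galactose minus control. ARO9, an aromatic aminotransferase gene, read 88.8 and 95.5 with galacturonic acid against 236.6 and 250.7 with galactose, and was lower with galacturonic acid (log2 difference -1.40 ± 0.36 SE, adjusted p = 0.0425). That call was lost without any one array other than galactose array 1 (adjusted p from 0.0602 to 0.266). Of 12 tested genes upstream of nitrogen signalling, such as TOR1 and NPR1, none passed in any comparison, and the medians were -0.22 and 0.24 against control. Of 12 tested genes of arginine and proline synthesis, ARG80, a subunit of the arginine regulator, fell with galactose. It read 4.0 and 2.0 with galactose, below the floor, against 27.1, 25.0 and 22.8 in control. The floor thus limits the size of the log2 difference, which was -1.05 ± 0.27 (SE, adjusted p = 0.0481), or 2.08-fold. Its 95% interval ran from -1.67 to -0.43. This call was lost without any one array other than galactose array 1 (adjusted p from 0.0752 to 0.134). That list had medians of -0.08 with galacturonic acid and -0.04 with galactose.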
